A study of Mus musculus with 12 samples.

Results

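The 9 genes described here are markers of B cells (Pax5, Ms4a1, Cd79a, Cd79b, Spib and Niban3) and of T cells (Cd3d, Cd3e and Cd3g), out of 22794 genes in the deposited count table. They were chosen because values measured in these libraries had fallen: Spib and Pax5 were low in NX JV101 compared with NX saline, and Niban3 was low in NX saline compared with sham saline. The other B cell genes and the T cell genes were set beside them for contrast. Both of those comparisons are therefore given as a description, and nothing is read from their counts of calls. The other pair of comparisons, of the JV101 group with the saline group after sham surgery and of the surgeries under JV101, did not choose the genes and was tested, but shares libraries with those that did. Where the libraries are shared, the values of a chosen gene are not independent of its choice.

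The samples were RNA of heart cells labelled cardiomyocytes from wild-type mice of the C57BL6 strain, 16 weeks after surgery. There were 4 groups of 3 libraries: sham surgery with saline (sham saline), sham surgery with JV101 (sham JV101), 5/6 nephrectomy with saline (NX saline) and 5/6 nephrectomy with JV101 (NX JV101). The series title speaks of telomere recapping as a gene therapy for cardio-renal syndrome, but the labels do not say what JV101 contains, nor the age or sex of the mice. They number the replicates without saying that each is a separate mouse, so a p-value reflects the spread of these libraries and no more.

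B cells carry an antigen receptor whose signal enters the cell through a pair of chains, Cd79a and Cd79b, while T cells signal through the CD3 chains, of which Cd3d, Cd3e and Cd3g are members. Pax5 is the transcription factor that sets and holds B cell identity, Ms4a1 encodes the surface protein CD20, Spib is an ETS-family transcription factor of B cells and plasmacytoid dendritic cells, and Niban3 encodes a protein of the Niban family found in B cells. None of these genes is known as a cardiomyocyte gene, and lymphocytes reach a heart preparation through blood, lymph and tissue-resident cells. In bulk RNA, fewer cells of a type and less RNA per cell cannot be told apart.

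The promoters of the genes are shown because 5 of the 6 B cell genes tended to be high in the same libraries, and because Spib belongs to a family that binds the purine-rich PU box. The windows hold the 250 bases before the annotated start, 5′ to 3′ on the gene's strand, from RefSeq on GRCm38.p6, an older build than the GRCm39 of the counts. Of the 9 genes, 7 had a promoter in the RefSeq table. Capitals mark the PU box (GAGGAA, or TTCCTC on the other strand) and would mark the octamer of B cell promoters (ATTTGCAT, or ATGCAAAT on the other strand). Spib lies at chr7:44532072-44532321 on the minus strand, Pax5 at chr4:44710695-44710944 on the minus strand, Cd79a at chr7:24897247-24897496 on the plus strand and Cd3d at chr9:44981536-44981785 on the plus strand.
Spib: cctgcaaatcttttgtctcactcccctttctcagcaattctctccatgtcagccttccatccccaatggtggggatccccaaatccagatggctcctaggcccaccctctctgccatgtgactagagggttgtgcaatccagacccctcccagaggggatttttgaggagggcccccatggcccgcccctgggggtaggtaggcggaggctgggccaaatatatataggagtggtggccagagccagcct
Pax5: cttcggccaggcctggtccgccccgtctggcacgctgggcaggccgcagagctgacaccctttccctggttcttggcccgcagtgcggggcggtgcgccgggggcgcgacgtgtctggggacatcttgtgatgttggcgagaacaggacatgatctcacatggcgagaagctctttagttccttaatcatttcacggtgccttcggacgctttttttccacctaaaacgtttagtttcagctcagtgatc
Cd79a: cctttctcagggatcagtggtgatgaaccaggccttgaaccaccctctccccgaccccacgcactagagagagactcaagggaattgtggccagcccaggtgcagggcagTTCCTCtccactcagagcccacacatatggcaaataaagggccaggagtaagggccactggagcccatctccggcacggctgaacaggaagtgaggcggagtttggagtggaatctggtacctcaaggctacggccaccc
Cd3d: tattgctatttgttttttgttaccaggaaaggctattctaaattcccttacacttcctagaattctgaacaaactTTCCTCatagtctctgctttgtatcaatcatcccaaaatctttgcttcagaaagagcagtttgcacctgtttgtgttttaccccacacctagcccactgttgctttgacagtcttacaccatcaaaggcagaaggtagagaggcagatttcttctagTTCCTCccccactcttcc
The octamer was in 0 of the 7 windows, against 1.6% of 32851 promoters of the same length. The PU box was in 3 of 7, against 23.25% of all promoters. It lay 140 bases before the start in Cd79a, 175 and 18 bases before it in Cd3d, and 100 bases before it in Cd3e, each time on the opposite strand. The shorter ETS core GGAA, which every PU box contains, was in 6 of 7 windows and in 93.45% of all promoters. The Spib, Pax5 and Niban3 windows, those of the genes selected for their fall, held neither marked motif. A match is a run of letters, not a bound site, and a missing match says only that these letters are not in this window.

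Libraries held 26.4 to 33.8 M counts. The mitochondrially encoded genes took 36.7% to 69.0% of them, which left 8.38 to 20.7 M counts for nuclear genes. Sham saline replicate 2 (69.0%) and NX saline replicate 3 (66.5%) had the highest mitochondrial shares and also the highest B cell sums, so results that rest on them are given without them as well. All 10 cardiomyocyte markers passed the count filter, and their sum was 38811 to 72454 CPM in every library. CPM are counts per 1 M counts of the library, here scaled by TMM, a factor that aligns the bulk of the genes between libraries.

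All 9 genes were rare. The summed counts of the 6 B cell genes were 46 to 250 per library and those of the 3 T cell genes 1 to 26. By mean FPKM over 12 libraries, the scale that allows genes of different length to be ranked, Cd79a came first at 1.12, followed by Cd79b at 0.701, Ms4a1 at 0.341, Niban3 at 0.164, Cd3g at 0.157, Spib at 0.120, Cd3d at 0.115, Cd3e at 0.0695 and Pax5 at 0.0620. The receptor chain genes of B cells thus exceeded those of T cells per length. Spib, Cd3d and Cd3g had no count in 1 library each and Cd3e in 2, and a count of 0 allows for up to 3 counts, so it does not show absence. The filter on low counts kept 14412 genes, among them all 6 B cell genes and Cd3g. Cd3d and Cd3e fell below it, and their fold changes come from a fit of all genes without the filter.

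**Figure D1:**
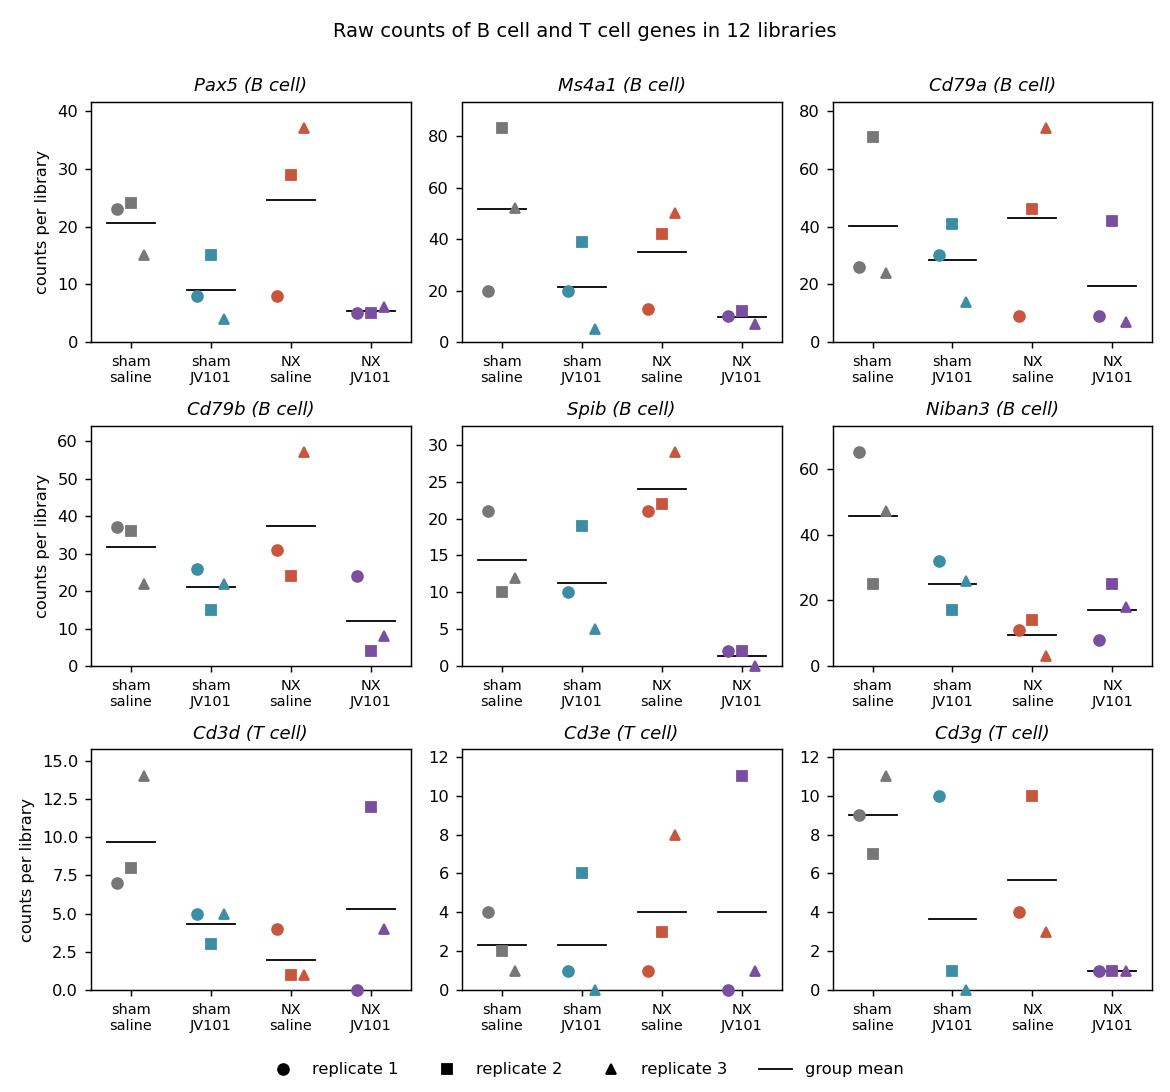
Raw counts (y axis, separate scale in each panel) of the 9 genes in the 12 libraries, grouped on the x axis by surgery and treatment; each symbol is a library and the line is the group mean. Spib is at 0 to 2 counts in NX JV101 and at 21 to 29 in NX saline, while Niban3 is highest in sham saline at 25 to 65 counts.

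The identity factor genes came lowest in NX JV101. Values below follow the order of replicates 1, 2 and 3. Pax5 had 23, 24 and 15 counts in sham saline, 8, 15 and 4 in sham JV101, 8, 29 and 37 in NX saline, and 5, 5 and 6 in NX JV101. The NX JV101 libraries were low and alike, whereas NX saline spread from the level of sham JV101 to the highest library of all. Spib had 21, 10 and 12 counts in sham saline, 10, 19 and 5 in sham JV101, 21, 22 and 29 in NX saline, and 2, 2 and 0 in NX JV101. All 3 NX JV101 libraries thus lay below every other library, 5 counts being the lowest elsewhere.

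Scaled for library size, Spib was 0.956 ± 0.532 CPM in NX saline (mean ± SD, n = 3, which holds for each mean below), 0.495 ± 0.109 in sham saline, 0.427 ± 0.379 in sham JV101 and 0.0384 ± 0.0349 in NX JV101. The step from NX saline to sham saline and the step from sham JV101 to NX JV101 had no overlap between libraries, and both sham groups overlapped. Pax5 was 1.03 ± 0.892 CPM in NX saline, 0.813 ± 0.500 in sham saline, 0.339 ± 0.298 in sham JV101 and 0.146 ± 0.0264 in NX JV101. Each group in this order overlapped its neighbour, and the first and last did not overlap.

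Among the receptor genes, Cd79a had 26, 71 and 24 counts in sham saline, 30, 41 and 14 in sham JV101, 9, 46 and 74 in NX saline, and 9, 42 and 7 in NX JV101. Its partner Cd79b had 37, 36 and 22 in sham saline, 26, 15 and 22 in sham JV101, 31, 24 and 57 in NX saline, and 24, 4 and 8 in NX JV101. Their group means were lowest in NX JV101, at 0.490 ± 0.438 CPM for Cd79a and 0.370 ± 0.391 for Cd79b, but NX JV101 overlapped NX saline for both. The highest NX JV101 library was replicate 2 for Cd79a and replicate 1 for Cd79b, so the chains that form 1 receptor complex did not peak in the same library. Sham JV101 was tight for Cd79b, at 0.683 ± 0.0265 CPM.

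Ms4a1, the CD20 gene, had 20, 83 and 52 counts in sham saline, 20, 39 and 5 in sham JV101, 13, 42 and 50 in NX saline, and 10, 12 and 7 in NX JV101. In CPM its means were 2.30 ± 2.22, 0.820 ± 0.840, 1.44 ± 1.17 and 0.266 ± 0.0843 in the same order. The NX JV101 libraries lay below every library of both saline groups, while each group overlapped its neighbour in the order of means.

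Niban3 had another pattern. It had 65, 25 and 47 counts in sham saline, 32, 17 and 26 in sham JV101, 11, 14 and 3 in NX saline, and 8, 25 and 18 in NX JV101. In CPM sham saline was 1.52 ± 0.124, sham JV101 0.807 ± 0.0590, NX JV101 0.437 ± 0.159 and NX saline 0.305 ± 0.126. The first 3 groups in this order did not overlap, and both NX groups did. Niban3 also varied least between libraries of a group: its biological coefficient of variation was 0.291, against 0.538 to 0.763 for the other B cell genes and a median of 0.502 over 3760 genes with a mean of 5 to 60 counts.

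The T cell genes were near the limit of counting. Cd3d had 7, 8 and 14 counts in sham saline, 5, 3 and 5 in sham JV101, 4, 1 and 1 in NX saline, and 0, 12 and 4 in NX JV101. Cd3e had 4, 2 and 1, then 1, 6 and 0, then 1, 3 and 8, and 0, 11 and 1 in the same group order. Both were spread unevenly within groups. Cd3g had 9, 7 and 11, then 10, 1 and 0, then 4, 10 and 3, and 1 in each NX JV101 library. Sham saline was highest for Cd3d (0.358 ± 0.156 CPM) and Cd3g (0.325 ± 0.0880 CPM) but lowest for Cd3e (0.0829 ± 0.0455 CPM), NX JV101 was lowest for Cd3g (0.0275 ± 0.00571 CPM) and NX saline for Cd3d (0.0699 ± 0.0509 CPM). NX JV101 replicate 2 held 12 of the 16 Cd3d counts and 11 of the 12 Cd3e counts of its group.

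In NX JV101 against NX saline, the comparison that selected Spib and Pax5, the B cell genes other than Niban3 were lower in NX JV101 and the values are a description only. On the log2 scale with its standard error, the fitted difference was −4.55 ± 0.91 for Spib, −2.77 ± 0.84 for Pax5, −2.41 ± 1.00 for Ms4a1, −2.11 ± 0.79 for Cd79b and −1.87 ± 1.03 for Cd79a. Cd3g had −2.69 ± 1.06, on 3 against 17 counts. Niban3 had 0.48 ± 0.42, and in the fit without a filter Cd3d had 0.85 ± 1.10 and Cd3e −0.79 ± 1.45. Without NX saline replicate 3 the difference was −1.90 for Pax5, −1.23 for Cd79b and −0.72 for Cd79a, and Cd3e turned to 0.67. Without NX JV101 replicate 2 the T cell genes were all negative, at −0.37 for Cd3d, −3.30 for Cd3e and −2.58 for Cd3g.

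The same contrast can be read from pooled counts, with exact 95% intervals that cover counting error only. Spib had 72 counts in NX saline and 4 in NX JV101, a ratio of 23.8 (8.89 to 89.5) after scaling. Pax5 had 74 and 16 counts, a ratio of 6.10 (3.52 to 11.2). Cd79a, at 129 and 58 counts, had a ratio of 2.93 (2.14 to 4.07). The counts that follow include the genes chosen for their fall in this comparison, so nothing is read from them. Of the 7 tested members, 4 (Pax5, Ms4a1, Spib and Cd3g) were lower in NX JV101 with no overlap of libraries, and the share of all 14412 genes was 3.69%. At an unadjusted p under 0.05 in edgeR 5 of the 7 were lower, and the share of all genes was 1.36%. With Benjamini-Hochberg adjustment over all genes edgeR called 0 members, and 0% of all genes. DESeq2 called 4 genes, 1 of them a member (Spib).

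In NX saline against sham saline, the comparison that selected Niban3, the difference of that gene was −2.26 ± 0.42, from 137 counts in sham saline to 28 in NX saline, a ratio of 4.68 (3.10 to 7.30). Spib had 0.93 ± 0.72, with all 3 NX saline libraries above all sham saline libraries in CPM. Pax5 (0.35 ± 0.76), Cd79b (0.36 ± 0.74), Cd79a (0.04 ± 0.98) and Ms4a1 (−0.67 ± 0.91) had differences smaller than their standard errors. Without NX saline replicate 3 the differences of Pax5, Cd79b and Cd79a turned to −0.53, −0.52 and −1.14, and without sham saline replicate 2 that of Ms4a1 turned to 0.42. Of the T cell genes, Cd3d had −2.25 ± 1.11 (6 against 29 counts) with no overlap, Cd3g −0.70 ± 0.86 and Cd3e 1.05 ± 1.50. Nothing is read from the counts of this comparison either. Of the 7 tested members Niban3, 1 gene, was lower without overlap, and the share of all genes was 5.92%. The same gene was the 1 member lower at an unadjusted p under 0.05, and the share of all genes was 2%. With adjustment edgeR called 0 members and 0% of all genes, and DESeq2 called 1 gene, Niban3.

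Sham JV101 against sham saline asked whether JV101 went with a difference where the kidneys were intact, and no member passed. All 7 tested members had negative values. Niban3 had −0.91 ± 0.39 (75 against 137 counts), with all 3 sham JV101 libraries (0.768 to 0.875 CPM) below all sham saline libraries (1.44 to 1.66 CPM), at an unadjusted p of 0.0389. Cd3d (13 against 29 counts; −1.31 ± 1.04) also did not overlap. Ms4a1 had −1.50 ± 0.94, Cd3g −1.47 ± 0.89, Pax5 −1.28 ± 0.80, Cd79b −0.82 ± 0.76, Cd79a −0.81 ± 1.00 and Spib −0.25 ± 0.73. The edgeR adjusted p was 1.00 for each of the 7 tested, and 0% of all genes were called. By unadjusted p 1 of 7 members (Niban3) was lower, against 0.971% of all genes. The same 1 of 7 was lower without overlap, against 2.07% of all genes. DESeq2 called 0 genes. The median over the 7 was −0.91, the value of Niban3 itself, against 0.03 over all genes tested. Niban3 was chosen for its fall from these same sham saline libraries, so nothing is read from these counts or from the median. Without sham saline replicate 2 the Cd79a difference turned to 0.54, and without sham JV101 replicate 3 the Spib difference turned to 0.17.

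NX JV101 against sham JV101 compared both surgeries under JV101, and again no member passed. Spib had the largest difference among the members, −3.37 ± 0.92, on 4 against 34 counts, a ratio of 10.3 (3.68 to 40.1), and its groups did not overlap. Spib and Pax5 were chosen for low values in these same NX JV101 libraries, so their values here are a description only. Nothing is read from the unadjusted edgeR p of Spib, 0.00351 (edgeR adjusted p 0.999). Niban3 had −0.87 ± 0.40 without overlap, at an unadjusted p of 0.0523. Cd3g had −1.91 ± 1.09, Ms4a1 −1.58 ± 1.00, Pax5 −1.14 ± 0.86, Cd79a −1.02 ± 1.02 and Cd79b −0.93 ± 0.79, and each of these overlapped between groups. The edgeR adjusted p was 0.999 for each of the 7 and 0% of all genes were called. By unadjusted p 1 of 7 (Spib) was lower against 1.3% of all genes, and 2 of 7 (Spib and Niban3) were lower without overlap against 2.42%. Both counts include Spib, so nothing is read from them. DESeq2 called 0 genes. Leaving out sham JV101 replicate 1 turned the Cd3g difference to 0.44, since that library held 10 of the 11 Cd3g counts of its group.

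**Figure D2:**
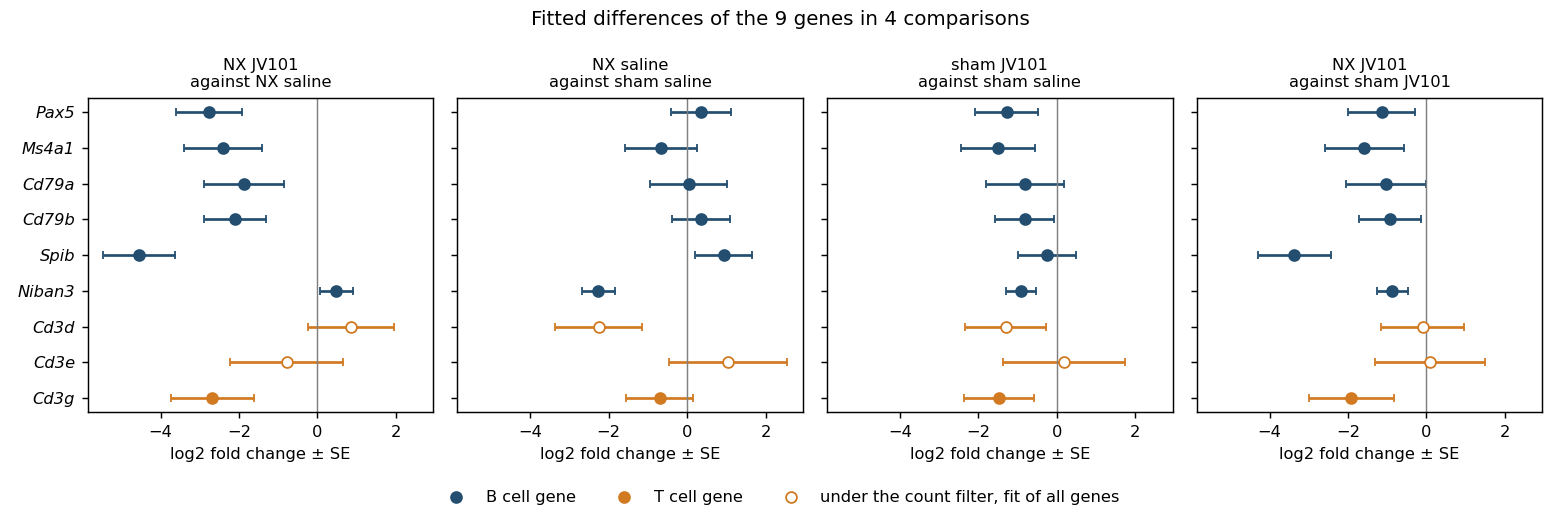
Fitted log2 fold changes (x axis) with their standard errors (bars) of the 9 genes (y axis) in the 4 comparisons, from the edgeR fit over all 12 libraries; open symbols are the 2 genes under the count filter, taken from the fit of all genes. Spib has −4.55 in NX JV101 against NX saline, and Niban3 has −2.26 in NX saline against sham saline, where the other B cell genes lie between −0.67 and 0.93.

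The interaction of surgery and JV101 contains both comparisons that selected the genes and is given as values only. It was −4.30 ± 1.17 for Spib and 1.39 ± 0.58 for Niban3, which had opposite signs. It was −1.49 ± 1.15 for Pax5, −1.29 ± 1.08 for Cd79b, −1.21 ± 1.33 for Cd3g, −1.06 ± 1.41 for Cd79a and −0.91 ± 1.34 for Ms4a1.

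Summed over its 6 genes, the B cell signal was 4.91, 14.4 and 5.32 CPM in the sham saline libraries, 3.45, 6.60 and 2.28 in sham JV101, 2.95, 5.09 and 13.5 in NX saline, and 1.98, 2.12 and 1.15 in NX JV101. In CPM the NX JV101 libraries were the 3 lowest of the 12, and a single library stood high in each saline group. The order of the lowest libraries depends on the scaling. Per 1 M counts of nuclear genes sham JV101 replicate 3 (4.21) lay below NX JV101 replicate 2 (4.51), as it did in raw counts (76 against 90). The sum also includes Spib and Pax5, chosen for low values in NX JV101. The mean B cell sums were 8.20 ± 5.35, 4.11 ± 2.24, 7.19 ± 5.60 and 1.75 ± 0.525 CPM in the same group order. Without Niban3, which had another pattern, they were 6.68 ± 5.42, 3.30 ± 2.26, 6.89 ± 5.72 and 1.31 ± 0.538 CPM. The T cell sum was 0.512, 0.981 and 0.805 CPM in the sham saline libraries, 0.438, 0.452 and 0.150 in sham JV101, 0.285, 0.402 and 0.650 in NX saline, and 0.0341, 0.566 and 0.150 in NX JV101. The means were 0.766 ± 0.237, 0.346 ± 0.170, 0.446 ± 0.186 and 0.250 ± 0.280 CPM. NX JV101 held the lowest T cell sum of the 12 libraries, in replicate 1, and in replicate 2 a sum above every sham JV101 library.

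As a log2 ratio of group means, NX JV101 against NX saline was −2.04 for the B cell sum and −0.84 for the T cell sum. Without NX saline replicate 3, the library with 66.5% mitochondrial counts, the B cell ratio was −1.20. Without NX JV101 replicate 2, which held 24 of the 31 T cell counts of its group, the T cell ratio was −2.28. The B cell ratio for sham JV101 against sham saline was −0.998, and −0.32 without sham saline replicate 2. That for NX saline against sham saline was −0.19, and ran from −1.03 without NX saline replicate 3 to 0.49 without sham saline replicate 2. The sum includes Niban3, chosen for its fall in this comparison. Without Niban3 the mean sum was slightly higher in NX saline than in sham saline (6.89 against 6.68 CPM). The 6-gene B cell ratio for NX JV101 against sham JV101 was −1.23, and −0.71 without sham JV101 replicate 2. No p is given for sums over genes selected with results known. The T cell share of the summed counts of the 9 genes was 1.69% to 21.1%, both extremes being NX JV101 libraries (exact 95% intervals 0.0429% to 9.09% and 14.0% to 29.7%).

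**Figure D3:**
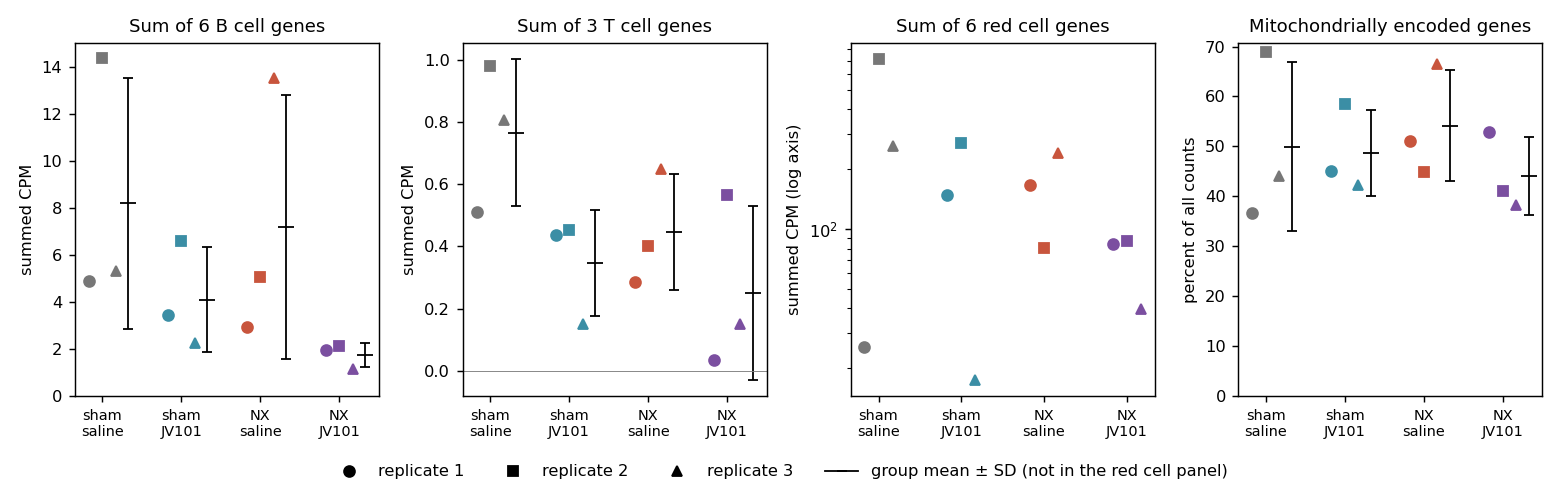
Summed CPM of the 6 B cell genes, of the 3 T cell genes and of 6 red cell genes (log axis), and the percentage of counts from mitochondrially encoded genes (y axes), in the 12 libraries by group (x axis); symbols are libraries and bars are the group mean ± SD. The library with the highest B cell sum in each group is also the one with the highest red cell sum of that group.

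Some markers of blood and of other cells peaked in the same libraries as the B cell sum, and others did not. The red cell list (6 genes, 5 of them tested, with Hbb-bs, Hbb-bt and Alas2 above 0 in all 12 libraries) summed to 25.6, 719 and 262 CPM in the sham saline libraries, 148, 271 and 17.5 in sham JV101, 166, 80.3 and 242 in NX saline, and 84.4, 87.7 and 39.9 in NX JV101. Its highest library was that of the B cell sum in 4 of 4 groups, and in CPM the T cell sum also peaked there in 4 of 4. In raw counts the T cell sum of that library was 17 in sham saline, against 20 and 26 in the others. It was 10 in sham JV101, against 16 and 5, and 12 in NX saline, against 9 and 14. Only in NX JV101 (24) was it the highest in raw counts too. The mitochondrial share peaked in that library in 3 of 4 groups, and so did the mesothelial list (10 of 10 tested), which summed to 69.2 to 87.8 CPM in sham saline, 42.3 to 59.9 in sham JV101, 60.9 to 127 in NX saline and 36.5 to 45.4 in NX JV101. Airway and lung genes (7 of 11 tested) ranged from 0.199 to 388 CPM over the libraries and peaked in that library in 0 of 4 groups. The neutrophil sum was highest in replicate 1 of sham saline, sham JV101 and NX saline (6.98, 41.0 and 25.4 CPM). The macrophage sum was highest in sham saline replicate 3, sham JV101 replicate 1 and NX saline replicate 2 (552, 765 and 548 CPM). In NX JV101 both peaked with the B cell sum. Niban3 peaked there in 1 of 4. The part of these cells and of the mitochondrial share in the B cell and T cell values was not tested.

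Lists of other blood cells had medians of both signs. The median difference in NX JV101 against NX saline was −0.23 over 12 pan-leukocyte genes, 0.12 over 12 macrophage genes, −2.0 over 7 neutrophil genes and −1.37 over 5 red cell genes, beside 0.01 over all genes. For NX JV101 against sham JV101 these medians were −0.03, 0.27, −2.54 and −1.14. No gene of these lists passed the edgeR adjusted threshold in any of the 4 comparisons.

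Further B cell genes included some that were low in NX JV101 and some that were not. Of 25 on the list, 19 were in the table and 16 were tested. The immunoglobulin constant genes on the list were not found in the table under the symbols searched, so they could not be analysed. Their median was −1.25 in NX JV101 against NX saline (12 negative, 4 positive), 0.18 in NX saline against sham saline, −0.53 in sham JV101 against sham saline (14 negative) and −0.15 in NX JV101 against sham JV101 (11 negative), and 0 of 16 passed with edgeR adjustment in any of them. By unadjusted p 5, 0, 1 and 2 of the 16 were lower in the same order, and 0 higher. The shares of all genes lower by unadjusted p were 1.36%, 2%, 0.971% and 1.3%. The list was chosen with earlier results of these data known, so nothing is read from these counts. The medians over all genes were 0.01, 0.02, 0.03 and 0.00.

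The 3 most abundant of that list are expressed in other heart cells as well. Ebf1, an early B cell factor also present in fat and stromal cells, had 68 to 456 counts in sham saline and 274 to 786 in NX JV101, with a difference of 0.45 ± 0.55 in NX JV101 against NX saline. Ralgps2, a Ral exchange factor, had 0.22 ± 0.34 and Cd37, a leukocyte tetraspanin, −0.68 ± 0.59.

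Of the other B cell genes, 3 more restricted to B cells were picked out after their low values in NX JV101 were seen, so they support nothing. Cd22, an inhibitory coreceptor, had 9, 36 and 38 counts in NX saline and 3, 12 and 1 in NX JV101. Blk, a B cell kinase, had 7, 23 and 19 against 1, 4 and 0. Pou2af1, the coactivator of octamer factors, had 11, 40 and 41 against 3, 17 and 5. In NX JV101 against NX saline the differences were −3.71 ± 1.16 for Blk, −2.95 ± 1.08 for Cd22 and −2.49 ± 0.79 for Pou2af1. Further genes of the same list had smaller or opposite differences, at 0.67 ± 0.42 for Cd72, 0.07 ± 0.54 for Blnk, −0.64 ± 0.59 for Bank1 and −0.68 ± 1.01 for H2-Ob. In NX JV101 against sham JV101, Cd22 had −2.64 ± 1.08 (unadjusted p 0.0318, edgeR adjusted p 0.999).

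Plasma cell genes, which mark antibody-secreting cells of the B lineage, gave 6 tested of 7 in the table, with medians of −0.92, −0.08, −0.05 and −0.25 in the order of the comparisons above, and 0 passed. Jchain, the joining chain of secreted antibodies, had 10, 116 and 32 counts in sham saline and 25, 74 and 15 in NX JV101. Its 2 highest libraries, at 116 and 121 counts, were sham saline replicate 2 and NX saline replicate 3. Txndc5 and Prdm1, which other cells express too, had −0.02 ± 0.18 and −0.46 ± 0.61 in NX JV101 against NX saline.

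Further T cell genes had medians of −0.42, −0.44, −0.54 and −0.05 in the same order. Of 23 that were in the table, 14 were tested, and 0 passed with edgeR adjustment in any comparison. By unadjusted p 1 of the 14 was lower in NX JV101 against NX saline, and none (0) elsewhere. The shares of all genes lower by unadjusted p were 1.36%, 2%, 0.971% and 1.3% in the same order, and nothing is read from these counts. Among the 3 most abundant, Cd28, the costimulatory receptor, had 0.19 ± 0.46 in NX JV101 against NX saline, Ctla4, its inhibitory counterpart, −0.39 ± 0.65 and Tcf7, a T cell transcription factor, −0.98 ± 0.66. Picked after seeing values, Cd4 had 10, 6 and 5 counts in NX saline and 10, 34 and 21 in NX JV101 (1.14 ± 0.83), and Cd2, an adhesion receptor of T and NK cells, 12, 23 and 25 against 8, 9 and 9 (−1.72 ± 0.69). The T cell receptor constant genes Trac, Trbc1 and Trbc2 were not found in the table under these symbols, so they could not be analysed.

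Markers of cells that share some of the 9 genes were measured too. Rag1 and Dntt, which mark developing lymphocytes, had 7 and 9 counts in total and were at 0 in 10 and 9 libraries. Sham saline replicate 3 held 6 of the Rag1 and 7 of the Dntt counts, and also the highest T cell sum in raw counts (26). The part of developing lymphocytes in the values of the T cell genes was not tested. The plasmacytoid dendritic cell markers Siglech and Ccr9 had 78 and 8 counts over the 12 libraries, against 153 for Spib. Siglech averaged 0.224 ± 0.237 CPM in NX JV101 and 0.152 ± 0.143 CPM in NX saline, a spread too wide to order these groups. The part of plasmacytoid dendritic cells in the Spib values was not tested. Of 12 NK cell genes 1 was tested. Of the defining NK markers, Ncr1 had 9 counts over the 12 libraries, Klrb1c 32, Prf1 37 and Nkg7 47, against 38 for Cd3e and 58 for Cd3g. The part of NK cells in the values of the T cell genes was not tested.

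Across the 12 libraries, which include the groups that selected the genes, the B cell genes other than Niban3 tended to be high and low in the same libraries. Over their 10 pairs, Pearson's r of log2 CPM was 0.543 to 0.913, with a median of 0.771, and the highest was Pax5 with Ms4a1. Without the 2 libraries of highest mitochondrial share, an alternative chosen after seeing the data, the median was 0.666 and the range 0.0267 to 0.862. The lowest, Cd79a with Cd79b (0.543 and rho 0.287 over all libraries), rests on those 2 libraries, and Ms4a1 with Cd79b fell to 0.384. Niban3 had −0.0777 to 0.150 with the same 5 genes, and 0.144 to 0.357 without the 2 libraries. Its highest value with any member was 0.776, with Cd3d (Spearman's rho 0.832), both genes being highest in sham saline. The T cell genes had 0.111 to 0.308 with one another, on counts too few to read a weak value.

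Only the 15 pairs among the 6 members that were not selected on their values were tested, by permutation (100000 draws, 2-sided) with Benjamini-Hochberg adjustment over the 15. The draws shuffled all 12 libraries without regard to group, so shared group differences enter these p-values. The correlations within groups were not tested. Ms4a1 and Cd79a had r = 0.872 (permutation p 0.00021, adjusted 0.00315) and rho = 0.804 (permutation p 0.00255, adjusted 0.0221), and r was 0.733 without the 2 libraries farthest from the median and 0.856 within groups (group means subtracted). Cd79a and Cd3e, a B cell and a T cell gene, had r = 0.764 (permutation p 0.00412, adjusted 0.0309) and rho = 0.767 (permutation p 0.00502, adjusted 0.0251), with 0.736 without 2 libraries and 0.811 within groups. Ms4a1 and Cd3g had r = 0.694 (permutation p 0.0146, adjusted 0.0546) and rho = 0.790 (permutation p 0.00295, adjusted 0.0221), but 0.372 within groups. The other 12 pairs did not pass by either coefficient. The libraries share depth and mitochondrial share, and the part of these in the correlations was not tested.

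**Figure D4:**
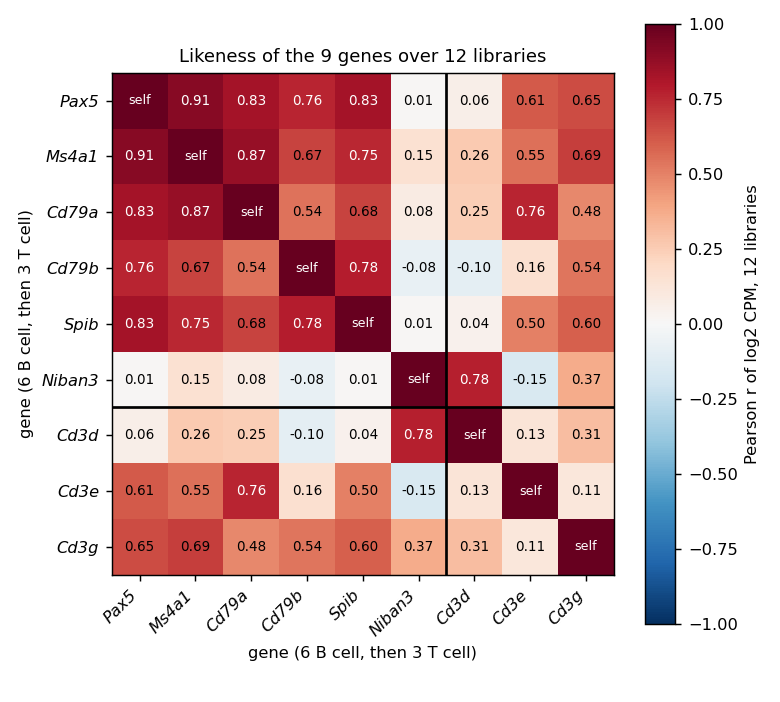
Pearson's r of log2 CPM over 12 libraries for each pair of the 9 genes (both axes, 6 B cell genes then 3 T cell genes, divided by black lines), with colour from −1 to 1. Pax5, Ms4a1, Cd79a, Cd79b and Spib form a block of 0.54 to 0.91, which Niban3 stays out of at −0.08 to 0.15.

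Among 14405 genes compared, those most like the mean of the 6 B cell genes included Alox15 (r = 0.948), Col19a1 (0.942), Cd22 (0.940) and Marco (0.934). Their counts per library were 9 to 90, 5 to 14, 1 to 47 and 0 to 35. The part of library scaling in such correlations, above all for the narrow range of Col19a1, was not tested. Cd22 is a B cell coreceptor, Marco is a scavenger receptor of macrophages, Alox15 is a lipoxygenase of resident macrophages and Col19a1 encodes a collagen chain. Those most like the mean of the 3 T cell genes were F5 (0.958), a clotting factor, Serpinh1 (0.944), the chaperone of collagen, Creld2 (0.933), Ciita (0.930), the regulator of MHC class II genes, and Sdf2l1 (0.917). None of these 5 is a T cell marker of the lists used. The genes most like Spib included Lrp2 (0.893) and Muc16 (0.890), the last a mesothelial marker. Niban3 was most like Zfp33b (0.947), Gm40124 (0.903) and Mtf1 (0.889), none of them on a B cell list. These values rest on 12 libraries, were the highest among many and carry no p.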

How the data were processed

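Libraries of polyA RNA from cells labelled cardiomyocytes were made, per the labels' protocols, with VAHTS Universal V6 reagents. The tools were fastp, HISAT2 and HTSeq with GRCm39, per the submitters' processing notes. Their versions, the annotation and whether strand was used were not given in the sources used here, so reads of a gene and an antisense partner cannot be told apart. The authors deposited raw counts and FPKM per gene for 12 libraries, whose columns carry the names given in the sample labels. Counts divided by the deposited FPKM gave the same gene length in every library in 9643 genes of 50 counts or more (relative differences of at most 8.97e-09).

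The counts were filtered with filterByExpr (minimum count 10, total 15), scaled by TMM and fitted by quasi-likelihood in edgeR, with all 12 libraries and the 4 groups in 1 model. F tests were 2-sided, adjusted by Benjamini-Hochberg over all 14412 genes, with 0.05 as the threshold. The standard error of a log2 fold change is its size divided by the square root of F. The versions were edgeR 4.0.16, DESeq2 1.42.0 and limma 3.58.1 under R 4.3.3, and the fit was tested on simulated counts. Depth was 26.4 to 33.8 M counts per library, so a gene with few counts is known only to within its counting error. Alternatives were DESeq2, RLE factors, no filter, counts without mitochondrially encoded genes, a block for the replicate number, fits of only the groups compared, limma on log2 of the deposited FPKM (pseudocounts 0.1 and 1), leaving out each library and, chosen after seeing the data, sums per M unscaled counts.

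The members and gene lists were chosen with earlier results of these data known. All members are named, with the 3 genes of highest mean count in a list described, and, by correlation of log2 CPM (prior count 2), the 5 genes most like the B cell mean and the T cell mean and 3 each for Spib and Niban3. Other genes named were chosen after their values were seen. Some genes that the rule picks are not reported here. Promoters came from RefSeq (GRCm38.p6), an older build, and were searched for letters only.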

Additional observations from a re-analysis of the deposited data

How the results depend on the processing

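With edgeR, 0 members were called in each comparison. DESeq2 called 1 member in NX JV101 against NX saline (Spib) and 1 in NX saline against sham saline (Niban3), both in comparisons that selected the genes; the cause was not tested. The other 54 counts of called members under alternatives were also 0. Of the members' log2 fold changes under alternatives, 452 moved by less than the standard error or, where tested, kept their direction and call, 34 of those given without a test moved further and 3 of those tested changed sign. The 3 came from leaving out 1 library: over such fits Cd79a in sham JV101 against sham saline ran from −1.51 to 0.54, Spib in the same comparison from −1.20 to 0.17, and Cd3g in NX JV101 against sham JV101 from −2.49 to 0.44. Spib in NX JV101 against sham JV101 was negative in 13 of 13 alternatives, from −3.90 to −0.13 (the latter as log2 of FPKM plus 1, which shrinks low genes), with a smallest adjusted p of 0.346. Spib was chosen for low values in these NX JV101 libraries, so its steady sign supports nothing. Where too few counts remained in the groups compared, members could not be fitted in those groups alone. The 64 alternative ratios of the B cell and T cell sums moved by less than the spread between libraries. That spread is a wide allowance with 3 libraries per group, so this says little about how firm the ratios are. It took in a change of sign of the B cell ratio in NX saline against sham saline when a library was left out.

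The labels do not say whether the replicate numbers pair the samples. With group means subtracted, same-numbered libraries of different groups had correlations of −0.50 to 0.25, over 0.1 in 6 of 18 pairs. Differently numbered libraries had −0.54 to 0.55, over 0.1 in 10 of 36 pairs. With 3 libraries per group these values cannot decide whether samples were paired. With the replicate number as a block edgeR called 0 members in each comparison, and Spib in NX JV101 against sham JV101 had −3.30.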
